A study of Homo sapiens with 5 samples.

Results

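The 10 tubulin genes TUBA1A, TUBA1B, TUBA1C, TUBA4A, TUBB, TUBB2A, TUBB2C, TUBB3, TUBB6 and TUBG1 were followed through 5 transcriptomes of HT1080 cells, an established human fibrosarcoma line. They were taken by their symbols from the 27189 gene entries that each library lists. In each case the cells had been held for 24 h in a 3D matrix of rat-tail type I collagen at 2 mg per ml. The matrices of LD (low density) were seeded at 10 cells per cubic mm with no cytokine, and those of HD (high density) at 50 cells per cubic mm with no cytokine. IL-6, IL-8 and RM were low-density matrices that received recombinant IL-6, recombinant IL-8, or both cytokines in a 5 to 2 ratio. Of the 10 genes, 9 reached 1 TPM (transcripts per 1000000, a level corrected for transcript length and library total) in at least 1 library, as did 21163 genes in all, and TUBB3 did not. Each condition is 1 library from 1 experiment in 1 cell line, so no difference given here has a replicate check or a p-value, and the intervals given are exact 95% intervals that cover the counting of reads only.

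Microtubules are hollow polymers of alpha-beta tubulin heterodimers, and they form the mitotic spindle, carry organelles and vesicles, and support the long protrusions of cells that move through a matrix. Vertebrates keep several alpha-tubulin and beta-tubulin genes, called isotypes, whose products are near-identical in the folded body and differ most in the acidic tail at the carboxyl end. Gamma-tubulin does not build the wall of the polymer but sits in ring complexes that start new microtubules at the centrosome. Cells also hold tubulin mRNA in check through free tubulin, which triggers the decay of tubulin transcripts during translation.

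The members comprise 4 alpha-tubulin genes, 5 beta-tubulin entries and the gamma-tubulin gene TUBG1. In GENCODE 29 on GRCh38, matched by symbol, TUBA1B (12:49127782-49131397, minus strand), TUBA1A (12:49184796-49189324, minus strand) and TUBA1C (12:49188736-49274603, plus strand) lie in a cluster on chromosome 12, with the annotated spans of TUBA1A and TUBA1C overlapping on opposite strands. TUBA4A lies at 2:219249711-219278170 on the minus strand. Of the beta-tubulin genes, TUBB2A (6:3153669-3157526, minus strand) and TUBB (6:30720201-30725426, plus strand) share chromosome 6, TUBB3 is at 16:89921392-89938761 and TUBB6 at 18:12307669-12344320, both on the plus strand. TUBG1 is at 17:42609676-42615234 on the plus strand. TUBB2C is the older symbol of TUBB4B (9:137241213-137243707, plus strand), but the libraries list an entry under each symbol, and both are described here. The deposited values were made on GRCh37, so none of these positions was used to count reads.

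Reads of 50 bases can tell these genes apart only where their sequences differ. The last 50 coding bases before the stop codon, which encode the tail, taken from GENCODE 29 transcripts on GRCh38, are shown for the 5 beta-tubulin members. They differed from TUBB at 19 bases in TUBB2A, 21 in TUBB4B (printed under TUBB2C), 30 in TUBB3 and 25 in TUBB6. Each is written 5′ to 3′ on the coding strand, and capitals mark bases that differ from TUBB, position by position without gaps.
TUBB, last 50: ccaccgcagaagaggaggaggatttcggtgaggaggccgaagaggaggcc
TUBB2A, last 50: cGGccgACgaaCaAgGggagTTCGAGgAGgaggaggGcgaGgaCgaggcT
TUBB2C, last 50: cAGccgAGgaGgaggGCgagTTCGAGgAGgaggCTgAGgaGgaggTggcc
TUBB3, last 50: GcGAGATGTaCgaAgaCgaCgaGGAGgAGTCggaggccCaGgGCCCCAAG
TUBB6, last 50: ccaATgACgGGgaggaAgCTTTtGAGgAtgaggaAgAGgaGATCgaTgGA

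Over their coding sequences, TUBA1B was identical to TUBA1A at 97.2% of bases and to TUBA1C at 98.1%, against 86.8% for TUBA4A, where pairs of unequal length were compared up to 45 bases before the shorter end. Of all 50-base windows of its main transcript, TUBA1B had 62.7% in common with a transcript of at least 1 other gene, TUBA1A 41.7% and TUBA1C 25.1%. TUBB2A shared 65.5% of its windows, most of them with TUBB2B, its close paralog, and 60.3% were found there. TUBG1 shared 29.9%, TUBB 18.2%, TUBB4B 9.89%, TUBA4A 5.25% and TUBB6 0.993%. In this annotation TUBA4A and TUBB6 are the members with the fewest ambiguous windows, whereas the split among TUBA1A, TUBA1B and TUBA1C, and the level of TUBB2A, rest on how RSEM divided shared reads.

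**Figure D1:**
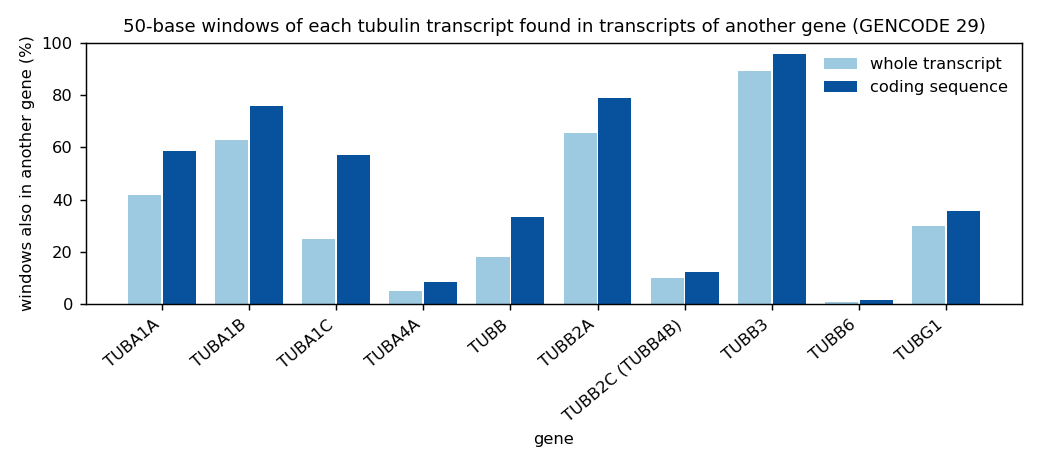
Share of 50-base windows (vertical axis, percent) of each tubulin gene's main transcript (light bars) and coding sequence (dark bars) that also occur in a transcript of another gene in GENCODE 29, with the genes on the horizontal axis. TUBB3, TUBB2A and TUBA1B have the highest bars and TUBB6 the lowest, and in all 10 genes the coding sequence shares more than the whole transcript.

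The libraries differed in depth and content. Total reads ran from 5096134 to 7118545 in the 4 low-density libraries and were 926376 in HD, and RNA5-8S5, an entry for ribosomal RNA, held 76.9 to 79.6% of them in the former and 51.5% in HD. This left 1100967 to 1645539 reads elsewhere at low density and 449661 in HD, where 3 reads, the smallest number treated as a measurable level here, equal 6.67 reads per 1000000 outside RNA5-8S5 against 1.82 to 2.72 in the others. HD nevertheless had reads on 20113 entries, against 13469 to 15080, and on 240 of 386 olfactory receptor entries, against 14 to 37. All 5 mesenchymal markers checked (VIM, FN1, CD44, LGALS1 and TIMP1) had reads in every library, with a summed level of 4899 to 7344 TPM at low density and 1032 TPM in HD. The 5 immune markers summed to 1.12 to 4.27 TPM at low density, with 1 or 2 detected, and to 209 TPM in HD, with all 5 detected. Epithelial markers summed to 2.299 to 28.5 TPM at low density and 58.9 TPM in HD, with KRT5 at 0 reads in all 5 libraries. Of these, KRT19 was lower in HD (18.0 TPM, 13 reads) than in LD (27.6 TPM, 132 reads), while CDH1, EPCAM and KRT14 were higher. Neuronal and glial markers summed to 9.05 to 14.5 TPM at low density and 69.2 TPM in HD.

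Tubulin transcripts were abundant in HT1080 cells in collagen. The 10 members together stood at 6899 TPM in LD, 6675 TPM with IL-6, 5360 TPM with IL-8, 7183 TPM in RM and 1460 TPM in HD. As a share of reads outside RNA5-8S5 they took 0.756% in LD, 0.728% with IL-6, 0.694% with IL-8, 0.868% in RM and 0.0809% in HD. Relative to LD, the read share was 0.962-fold with IL-6 (0.935 to 0.989), 0.917-fold with IL-8 (0.891 to 0.944) and 1.15-fold in RM (1.12 to 1.18), differences that exceed the counting error but have no measured spread between cultures to be set against. For IL-8 the direction depended on what was summed and on the scale, since with TUBB4B, the current symbol of TUBB2C and an entry of its own, the read share was 1.04-fold that of LD (1.02 to 1.06), and the log2 ratio of summed TPM to LD was -0.36 as listed and 0.085 after median-ratio scaling. In bulk RNA a lower share can come from fewer cells of a type or from less of the RNA in each cell, and these cannot be told apart.

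The isotypes differed widely in level within a library. In LD the order by TPM was TUBA1B, TUBA1C, TUBA1A, TUBA4A, TUBB6, TUBB2C, TUBB, TUBG1, TUBB2A and TUBB3, with TUBA1B ranked 19 among all 27189 entries. The counting intervals of TUBB2C (146 to 202 TPM) and TUBB (147 to 174 TPM) overlapped, as did those of TUBG1 (40.9 to 58.1 TPM) and TUBB2A (36.9 to 55.3 TPM), so the order of these neighbours was not resolved. TUBA1B was above TUBA1C in all 4 low-density libraries and below it in HD.

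**Figure D2:**
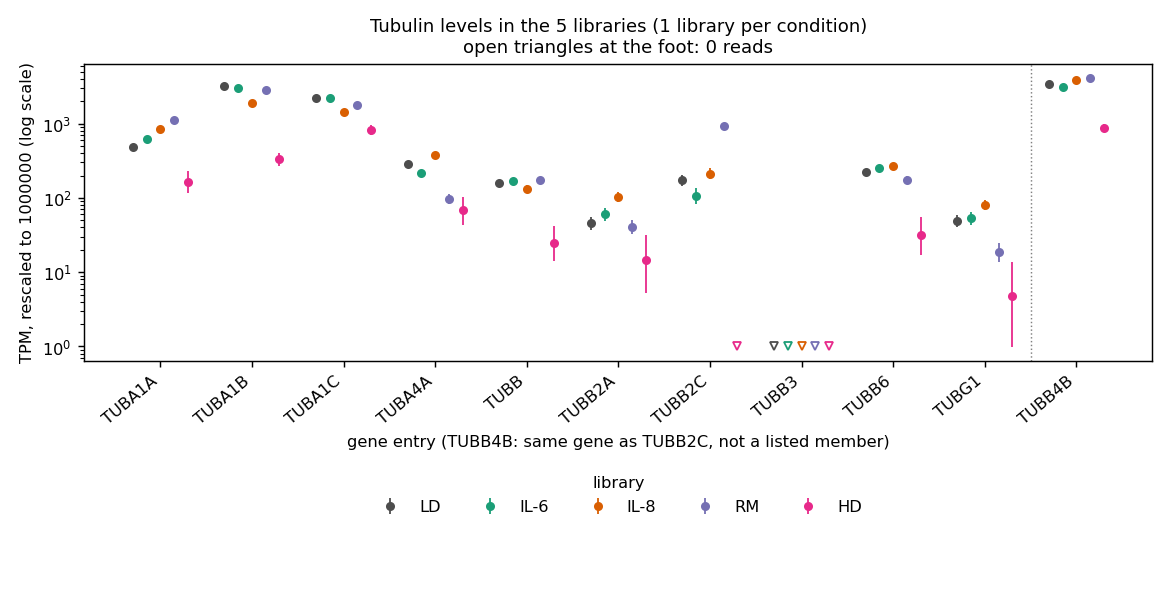
Level of each tubulin entry (horizontal axis) in TPM on a log scale (vertical axis), with 1 point per library, LD at the left and HD at the right of each gene, bars for exact 95% counting intervals and open triangles for 0 reads; TUBB4B, to the right of the dotted line, is the current symbol of TUBB2C and not one of the 10 members. The HD point is the lowest of the 5 for every entry with reads, TUBB2C stands out in RM at 944 TPM, and TUBB3 has 0 reads throughout.

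Read against LD, a difference of at least 1 log2 unit on the log2(TPM + 1) scale, where changes of low values appear smaller than they are, was counted as higher or lower. The 4 comparisons share the LD library and are therefore not independent of each other. With IL-6 alone, 0 of the 9 members tested were higher, where 9.84% of all genes tested were, and 0 were lower, where 7.47% of all genes were. IL-8 alone gave 1 member higher, TUBB2A, against a background of 7.99%, and 0 lower against 16.4%. In RM, 2 members, TUBA1A and TUBB2C, were higher against a background of 6.44%, and another 2, TUBA4A and TUBG1, were lower against 20.4%. In HD, 0 members were higher against 61.9% of all genes, and 9 of the 9 tested were lower against 17.9%. Median-ratio scaling, which sets the libraries to a common median ratio over genes above 0 in all of them, evened out the background, with 12.1% of all genes higher and 10.7% lower for IL-8, and 12.9% higher and 11.4% lower for RM. Under it 3 members were higher with IL-8 (TUBB2A, TUBA1A at 1.27 and TUBG1 at 1.16), and in RM TUBA1A and TUBB2C stayed higher while 0 members were lower. The median difference of the members was 0.08 with IL-6, 0.30 with IL-8, -0.19 in RM and -2.63 in HD. Over all genes tested it was 0 with IL-6, with IL-8 and in RM, and 1.86 in HD. All genes tested include genes that reach 1 TPM in HD alone. In the 3842 genes averaging at least 50 reads it was -0.04 with IL-6, -0.27 with IL-8, -0.37 in RM and -1.21 in HD. Those genes hold the 9 members tested.

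**Figure D3:**
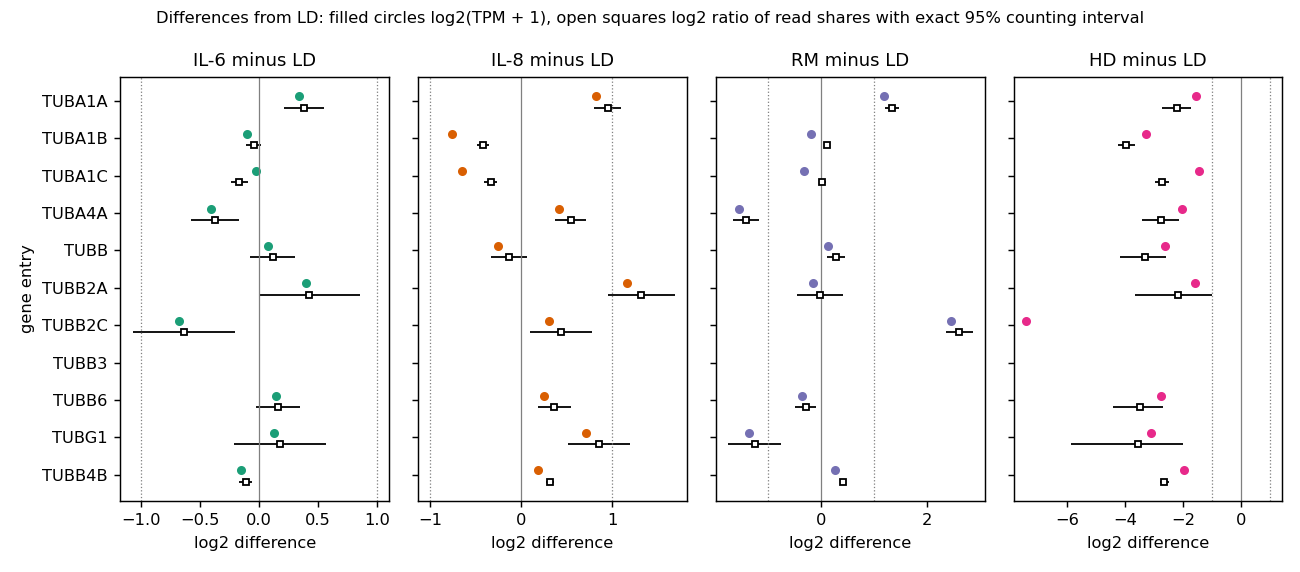
Difference from LD of each tubulin entry (rows) for IL-6, IL-8, RM and HD (panels, each with its own horizontal scale in log2 units), as the log2(TPM + 1) difference (filled circles) and as the log2 ratio of read shares outside RNA5-8S5 (open squares, with exact 95% counting intervals); dotted lines mark 1 log2 unit. Points lie near 0 with IL-6, spread to both sides in RM and lie below -1 for all members with reads in HD; TUBB3 has no point and TUBB2C no square in HD, where it had 0 reads.

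TUBA1A, the alpha-tubulin best known from the developing brain, was higher in each cytokine library than in LD. It stood at 485 TPM in LD (615 reads), 614 TPM with IL-6 (535 reads), 856 TPM with IL-8 (809 reads), 1104 TPM in RM (1355 reads) and 164 TPM in HD (36 reads). RM was thus the highest of the 5 and HD the lowest, and no counting intervals of these levels overlapped. On the log2(TPM + 1) scale the difference from LD was 0.34 with IL-6, 0.82 with IL-8 and 1.19 in RM, and the read share in RM was 2.53-fold that of LD (2.296 to 2.78). RM exceeded IL-8 by 0.37 and IL-6 by 0.85 log2 units.

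TUBA1B, the most abundant alpha-tubulin at low density, showed another pattern, with its highest TPM in LD. Its levels were 3236 TPM in LD, 3012 TPM with IL-6, 1902 TPM with IL-8, 2835 TPM in RM and 333 TPM in HD, from 5676, 3675, 2895, 5361 and 99 reads. TUBA1C, its near-identical neighbour in the cluster, stood at 2239 TPM in LD, 2196 TPM with IL-6, 1421 TPM with IL-8, 1793 TPM in RM and 819 TPM in HD, from 4115, 2452, 2219, 3639 and 169 reads. Both were thus lower with IL-8 than in LD, IL-6 and RM, by 0.77 and 0.66 log2 units against LD, short of the threshold. In RM the sign of either difference depended on the scale. It was -0.19 for TUBA1B and -0.32 for TUBA1C in TPM, 0.12 and 0.02 in reads per 1000000 outside RNA5-8S5, and 0.54 and 0.41 after median-ratio scaling of TPM. The length that reads and TPM together imply for a gene, which moves when RSEM assigns reads to other transcripts, was 1.16-fold that in LD for TUBA1B with IL-8 and 1.11-fold in RM, and for TUBA1C 1.14-fold in both of these, 0.885-fold with IL-6 and 0.663-fold in HD. For TUBA1A, TUBA4A, TUBB and TUBB4B it stayed within 0.998 to 1.03 of LD in every library.

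TUBA4A, an alpha-tubulin gene on chromosome 2 with few shared windows, was the member whose level in RM lay furthest below LD. It was at 286 TPM in LD, 215 TPM with IL-6, 382 TPM with IL-8, 96.7 TPM in RM and 68.3 TPM in HD, from 569, 294, 566, 186 and 23 reads. IL-8 was the highest library and HD the lowest, and the counting intervals of RM (83.3 to 112 TPM) and HD (43.3 to 102 TPM) overlapped. The log2 difference of RM was -1.55 from LD, -1.15 from IL-6 and -1.97 from IL-8, and its read share was 0.375-fold that of LD (0.316 to 0.443). With median-ratio scaling the RM difference from LD was -0.83, on the other side of the threshold.

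Shares within the alpha-tubulin family do not depend on how a library was scaled. TUBA1A made up 7.76% of summed alpha-tubulin TPM in LD, 10.2% with IL-6, 18.8% with IL-8, 18.9% in RM and 11.9% in HD. By reads its share was 5.60% in LD (5.18 to 6.05%), 7.69% with IL-6 (7.08 to 8.34%), 12.5% with IL-8 (11.7 to 13.3%), 12.9% for RM (12.2 to 13.5%) and 11.01% for HD (7.83 to 14.9%). The shares of IL-8 and RM lay above those of LD and IL-6 beyond counting error and did not differ from each other beyond it, while the wide interval of HD overlapped with IL-6, IL-8 and RM. TUBA4A took 1.66% of alpha-tubulin TPM in RM and 8.37% with IL-8, with the other libraries between 3.57 and 4.93%. TUBA1C made up 59.2% of alpha-tubulin TPM in HD and 30.8 to 36.4% elsewhere. By reads its share was 51.7% in HD (46.1 to 57.2%) and 34.2 to 37.5% elsewhere. Summed, TUBA1A, TUBA1B and TUBA1C held 91.6 to 98.3% of alpha-tubulin TPM, a share that rests less on how reads were divided among the 3.

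**Figure D4:**
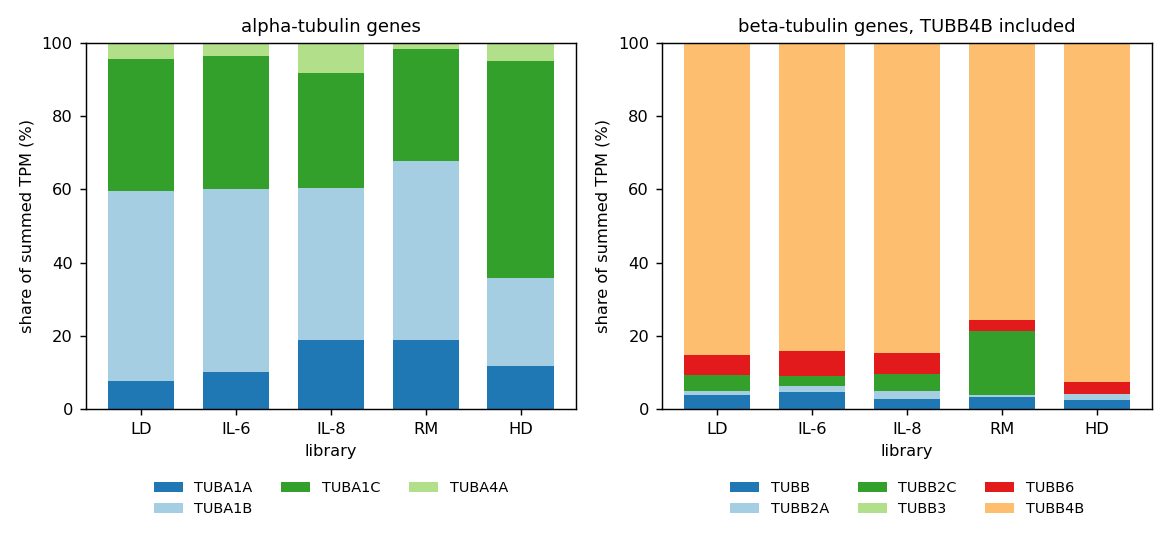
Make-up of alpha-tubulin TPM (left) and of beta-tubulin TPM with TUBB4B included (right) in each library (horizontal axis), as the percent of the family's sum taken by each gene (stacked bars from 0 to 100%). TUBA1A widens from 7.76% in LD to 18.9% in RM, TUBA1C fills 59.2% in HD, TUBB4B is the largest beta-tubulin band throughout, and the TUBB2C band is widest in RM.

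Among the beta-tubulins, TUBB2C had the most distinct profile. The entry held 173 TPM in LD (153 reads), 107 TPM with IL-6 (66 reads), 213 TPM with IL-8 (141 reads), 944 TPM in RM (808 reads) and 0 TPM in HD (0 reads). RM was far above the other libraries, by 2.44 log2 units over LD, 3.13 over IL-6 and 2.14 over IL-8, and its read share was 6.06-fold that of LD (5.09 to 7.25), 9.40-fold that of IL-6 (7.31 to 12.3) and 4.48-fold that of IL-8 (3.74 to 5.39). Of the 10 members, this was the difference from LD in RM that was largest in either direction, and it was past 1 log2 unit under each scaling tried. With HD at 0 reads, TUBB2C was at least 13.9-fold lower there than in LD and at least 84.4-fold lower than in RM when HD is set at the floor of 3 reads. The exact interval for the read share in HD relative to LD is wider and reached 0.0893.

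TUBB4B, the entry under the current symbol of the same gene, did not have this profile. It held 3450 TPM in LD, 3107 TPM with IL-6, 3930 TPM with IL-8, 4126 TPM in RM and 883 TPM in HD, from 7436, 4593, 6309, 8593 and 322 reads. RM was 0.26 log2 units above LD, and the read share 1.33-fold that of LD (1.29 to 1.37). TUBB2C took 2.02% of the reads of the pair in LD (1.71 to 2.36%), 1.42% with IL-6 (1.10 to 1.80%), 2.19% with IL-8 (1.84 to 2.57%), 8.59% for RM (8.04 to 9.18%) and 0% for HD (0 to 1.14%). Reads and TPM implied for TUBB2C a length 0.411 to 0.416 times that of TUBB4B in the 4 libraries with reads, so the TUBB2C entry covered a shorter sequence. Summed over both entries, the read share relative to LD was 0.918-fold with IL-6 (0.885 to 0.952), 1.25-fold with IL-8 (1.21 to 1.29), 1.42-fold for RM (1.38 to 1.46) and 0.155-fold for HD (0.138 to 0.174). The 6.06-fold difference of TUBB2C in RM was therefore a difference of a minor entry, and what sequence its reads came from was not tested.

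TUBB, TUBB6 and TUBB2A are the other beta-tubulins with reads. TUBB, a beta-tubulin of most dividing cells, stood at 160 TPM in LD, 169 TPM with IL-6, 133.6 TPM with IL-8 and 175 TPM in RM, and at 25.04 TPM in HD (551, 399, 343, 581 and 15 reads). Relative to LD its read share was 1.08-fold with IL-6 (0.949 to 1.23) and 0.914-fold with IL-8 (0.796 to 1.05), with intervals that include 1, and 1.21-fold in RM (1.07 to 1.36). For IL-8 the sign of its difference depended on the scale, at -0.26 log2 units in TPM and 0.19 after median-ratio scaling.

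TUBB6, a divergent beta-tubulin, was at 226 TPM in LD, 249 TPM with IL-6, 269 TPM with IL-8, 176 TPM in RM and 32.1 TPM in HD (539, 403, 473, 383 and 13 reads). RM was the lowest of the low-density libraries, with a read share 0.815-fold that of LD (0.713 to 0.931), 0.729-fold that of IL-6 and 0.633-fold that of IL-8. The log2 difference of TUBB6 between RM and LD was -0.36 in TPM and 0.37 after median-ratio scaling. TUBB2A was at 45.4 TPM in LD, 60.3 TPM with IL-6, 103 TPM with IL-8, 40.7 TPM in RM and 14.5 TPM in HD, from 99, 89, 168, 85 and 6 reads. Its IL-8 level was above those of all the other libraries beyond the counting intervals, by 1.16 log2 units over LD and with a read share 2.49-fold that of LD (1.93 to 3.23), whereas LD, IL-6 and RM overlapped. TUBB2B, which shares most of the windows of TUBB2A, was listed at 0 reads in all 5 libraries.

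The beta-tubulin sum rested on whether TUBB4B was counted in it. Over the 5 beta-tubulin members it was 604 TPM in LD, 585 TPM with IL-6, 719 TPM with IL-8, 1336 TPM in RM and 71.6 TPM in HD, and TUBB2C alone took 70.7% of it in RM against 28.6% in LD. With TUBB4B included the sums were 4054, 3693, 4648, 5462 and 954 TPM in the same order. The ratio of alpha-tubulin to beta-tubulin TPM, the product of both families being used in equal amounts in the heterodimer, was 10.3 in LD, 10.3 with IL-6, 6.35 with IL-8, 4.36 in RM and 19.3 in HD without TUBB4B. With it the ratio was 1.54 in LD, 1.63 with IL-6, 0.981 with IL-8, 1.45 for HD and 1.07 for RM. On the TPM scale IL-8 and RM were thus the lowest either way, while HD was the highest only without TUBB4B. By reads the order with TUBB4B differed, and HD lay below RM. HD had 327 alpha-tubulin reads against 356 beta-tubulin reads, whereas RM had 10541 against 10450. The ranking of TPM ratios also rests on the implied lengths of TUBA1B and TUBA1C, which moved between libraries.

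TUBB3, the beta-tubulin used as a marker of neurons and also found in many tumour lines, had 0 reads in every library. The floor of 3 reads stands at 1.82 reads per 1000000 outside RNA5-8S5 in LD, 2.72 with IL-6, 2.68 with IL-8, 2.09 for RM and 6.67 for HD. The exact intervals around 0 reads reached 2.24 reads per 1000000 in LD, 3.35 with IL-6, 3.29 with IL-8, 2.57 in RM and 8.20 in HD. On GRCh38 it begins 414 bases after MC1R, the melanocortin receptor gene, on the same strand, and MC1R was listed at 1042 TPM in LD, 1181 TPM with IL-6, 1722 TPM with IL-8, 1664 TPM in RM and 1402 TPM in HD, from 591 to 3960 reads. GENCODE 29 also holds a readthrough gene, AC092143.1, whose transcripts carry 89.4% of the 50-base windows of TUBB3, while the transcripts of MC1R carry 0 of its 1720 windows. Where in the MC1R entry those reads fell cannot be seen in gene-level values, and whether transcripts of TUBB3 were counted there was not tested.

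TUBG1, which encodes the main gamma-tubulin of dividing cells, was the member with the lowest level above 0 in RM and in HD. It stood at 48.9 TPM in LD (131 reads), 53.6 TPM with IL-6 (99 reads), 80.9 TPM with IL-8 (161 reads), 18.5 TPM in RM (48 reads) and 4.72 TPM in HD (3 reads). LD and IL-6 overlapped in their counting intervals, IL-8 lay above them and RM below them. The read share was 1.80-fold that of LD with IL-8 (1.42 to 2.29) and 0.420-fold in RM (0.295 to 0.589), and RM against IL-8 gave -2.07 log2 units. After median-ratio scaling the RM difference from LD was -0.65 instead of -1.36. For TUBG1 as for TUBA4A, IL-8 was the highest of the low-density libraries and RM the lowest. With 3 reads, the HD value had an interval from 0.973 to 13.8 TPM.

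At high density, all 9 tubulin members tested were lower than in LD, and TUBB2C had 0 reads. In TPM, TUBA1C and TUBA1A, at -1.45 and -1.56 log2 units, differed least, followed by TUBB2A at -1.59 and TUBA4A at -2.05. Then came TUBB at -2.63, TUBB6 at -2.78, TUBG1 at -3.13 and TUBA1B at -3.28. This order depended on the scale. As log2 ratios of read shares, the values were -2.17 for TUBB2A, -2.22 for TUBA1A, -2.73 for TUBA1C and -2.76 for TUBA4A. TUBA1C was thus the least different in TPM but not by read share. By read share TUBA1B in HD was 0.0638-fold that of LD (0.0518 to 0.0779) and TUBA1C 0.1503-fold (0.128 to 0.175). As listed, the 2 most abundant alpha-tubulins thus differed from each other in how far they stood below LD. Their split rests on how RSEM divided shared reads, and the implied length of TUBA1C in HD was 0.663-fold that in LD. Summed over all members the read share was 0.107-fold (0.0962 to 0.119). These differences kept their direction under each scaling tried.

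That direction was opposite to the median over all genes tested, and the background differed with the filter on reads. The median of all genes was 1.86 on the TPM scale, 1.45 after median-ratio scaling and 1.69 in reads per 1000000 outside RNA5-8S5. Genes that reach 1 TPM in HD alone are part of this background. With HD left out of the filter, 14267 genes were tested, of which 43.9% were higher in HD and 26.5% lower. All 9 members tested were lower with this filter as well. Among the 3842 genes with a mean of at least 50 reads, which held the 9 members tested, 54.4% were at least 1 log2 unit lower in HD, 15.6% were higher, and the median was -1.21. Among the 3597 genes with at least 10 reads in all 5 libraries, which held 6 members, 29% were lower, as were 6 of the 6, while 33.9% were higher and the median was 0.11. The former set can hold genes with few reads in HD and the latter cannot. The mesenchymal markers moved with the tubulins, with VIM at 10796 reads in LD and 206 in HD. The number of olfactory receptor entries with reads moved the other way. So did the summed TPM of the immune markers and that of the neuronal and glial markers. Among the neuronal and glial markers, only SYP was lower in HD, with 0 reads against 1 in LD. The part of these library differences in the lower tubulin levels was not tested, and library content and cell density cannot be told apart with 1 HD library.

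**Figure D5:**
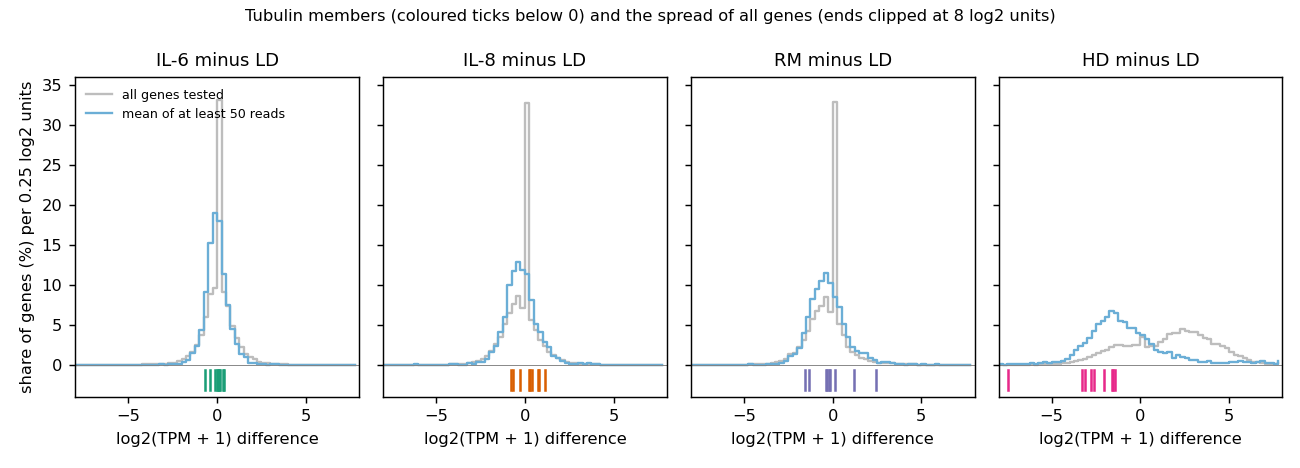
Distribution of log2(TPM + 1) differences from LD over all genes tested (grey) and over genes with a mean of at least 50 reads (blue), as the percent of genes per 0.25 log2 units (vertical axis) for IL-6, IL-8, RM and HD (panels), with coloured ticks below 0 for the 9 tubulin members tested. The last bin at either end takes all differences beyond 8 log2 units, and in HD the grey curve lies mostly above 0 and the blue one below it, with the ticks in the left part of both.

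Genes that serve the tubulins were counted in the same way and are to be read against the same backgrounds. Of all genes tested, 9.84% were higher and 7.47% lower with IL-6, and 7.99% and 16.4% with IL-8. In RM these shares were 6.44% and 20.4%, and in HD 61.9% and 17.9%. Among the 3842 genes averaging at least 50 reads, 15.6% were higher and 54.4% lower in HD. The list of 12 other tubulins had 10 tested, mostly at very few reads. In RM, 0 were higher and 2 lower, and in HD 7 were higher and 1 lower, with medians of -0.19 and 2.12. Only TUBA3C and TUBG2 had at least 50 reads in LD. TUBA3C, an alpha-tubulin of testis, was at 87.9 TPM in LD, 35.4 TPM with IL-6, 30.1 TPM with IL-8, 65.1 TPM in RM and 11.7 TPM in HD. TUBG2, the paralog of TUBG1, was at 19.9 TPM in LD, 3.94 TPM with IL-6, 30.4 TPM with IL-8, 15.1 TPM in RM and 30.6 TPM in HD. In HD, TUBG2 (13 reads) was therefore above TUBG1 (3 reads). With IL-6, 1 of the 10 was higher and 2 were lower, and with IL-8 2 were higher and 2 lower.

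Of the 9 genes of the gamma-tubulin complex, 0 were higher and 2 lower in RM (median -0.36), and 5 were higher and 1 lower in HD (median 1.16). With IL-6, 2 were higher and 1 lower, and with IL-8 2 were higher and 2 lower. Only TUBGCP2 and MZT2B had at least 50 reads in LD. TUBGCP2, a core subunit of the complex, stood at 55.4 TPM in LD and 105 TPM in RM, a difference of 0.91 log2 units that went the other way from TUBG1. MZT2B, a small protein of the complex, was at 101 TPM in LD, 123 TPM in RM and 58.9 TPM in HD.

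Tubulin folding needs prefoldin, which hands new chains to the chaperonin, and the tubulin cofactors, which join alpha-tubulin to beta-tubulin. Of these 13 genes, 1 was higher and 5 lower in RM (median -0.73), and 1 was higher and 6 lower in HD (median -0.94). The HD median was 1.86 for all genes tested and -1.21 for those averaging at least 50 reads. With IL-6, 2 were higher and 1 lower, and with IL-8 2 were higher and 4 lower. Of the 13, 7 had at least 50 reads in LD. ARL2, a small GTPase that works with the cofactors, stood at 154 TPM in LD and 364 TPM in RM, a difference of 1.24 log2 units, and was the highest of the well-counted members of this list in both RM and HD (0.36). PFDN2, a prefoldin subunit, was at 65.2 TPM in LD and 18.5 TPM in RM (-1.76), on 51 and 14 reads. PFDN1, another subunit, had 83 reads in LD and 0 in HD.

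Enzymes that modify tubulin add or remove tyrosine, glutamate or acetyl groups. Of the 14 found of 15 listed, 0 were higher and 7 lower in RM, with a median of -0.93, and 4 were higher and 2 lower in HD, with a median of 0.76. IL-6 had 1 higher and 3 lower, and IL-8 2 higher and 4 lower. Of the 14, only 3 had at least 50 reads in LD. HDAC6, the main tubulin deacetylase, was at 17.8 TPM in LD and 2.38 TPM in RM (74 and 11 reads, -2.47 log2 units), and also at 2.90 TPM with IL-6, 36.03 TPM with IL-8 and 31.1 TPM in HD. SIRT2, another tubulin deacetylase, was at 25.1 TPM in LD and 48.1 TPM in RM, a difference of 0.91. AGBL5, which removes glutamate, stood at 60.1 TPM in LD and 8.95 TPM in HD, on 221 and 7 reads.

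Proteins that stabilise microtubules or bind their ends numbered 16. In RM 0 were higher and 5 lower (median -0.75), and in HD 5 were higher and 8 lower (median -0.83). With IL-6, 1 was higher and 0 lower, and with IL-8 0 were higher and 3 lower. At least 50 reads in LD were held by 10 of the 16. MAPRE1, the end-binding protein EB1 that rides on growing microtubule tips, had 79 reads in LD, 57 with IL-6, 36 with IL-8, 9 in RM and 2 in HD, and its RM level was 2.55 TPM against 21.7 TPM in LD (-2.68). MAPRE3, its paralog EB3, was at 44.0 TPM in LD and 72.4 TPM in RM (0.71), so the members of this pair lay on opposite sides of LD. MAP1B, a microtubule-associated protein, was at 133.9 TPM in LD and 14.6 TPM in HD, and its relative MAP1A was at 4.91 and 7.24 TPM, on 72 and 18 reads.

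Among 9 microtubule destabilising proteins, 0 were higher and 4 lower in RM (median -0.64), and 4 were higher and 1 lower in HD (median 0.24). With IL-6, 0 were higher and 0 lower, and with IL-8 0 were higher and 4 lower. Only 2 of the 9 had at least 50 reads in LD. STMN1, or stathmin, which holds free tubulin dimers, stood at 63.1 TPM in LD, 55.7 TPM with IL-6, 50.3 TPM with IL-8, 40.02 TPM in RM and 74.7 TPM in HD.

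The genes whose profile over the 5 libraries was nearest to the median tubulin profile were GPAA1 (a subunit of the enzyme that attaches lipid anchors to proteins), BCAP31 (a protein of the endoplasmic reticulum), H3F3B (histone H3.3), TKT (transketolase) and MED12 (a Mediator subunit), out of 4829 genes with at least 50 reads in LD. Nearness was the Euclidean distance between log2(TPM + 1) values, each gene centred on its own mean, and ran from 0.123 for GPAA1 to 0.252 for MED12. Centred in this way, the median tubulin profile was 0.54 in LD, 0.45 with IL-6, 0.73 with IL-8, 0.18 in RM and -1.90 in HD, so it was dominated by HD. GPAA1 was at 154 TPM in LD, 143 TPM with IL-6, 168 TPM with IL-8, 118 TPM in RM and 29.5 TPM in HD. BCAP31 was at 1243, 1326, 1557, 1033 and 225 TPM in the same order. All genes share these 5 libraries, and the distances carry no test.

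The promoters of the most abundant entry of each family were read from RefSeq on GRCh38.p14, since these genes supplied the largest share of beta-tubulin and alpha-tubulin TPM in LD. Each is the 250 bases before the start site, 5′ to 3′ on the gene's strand, and capitals mark CCAAT or its reverse complement ATTGG, the box that factor NF-Y binds. The promoter of TUBB4B (9:137241037-137241286, plus strand) held 3 and that of TUBA1B (12:49131396-49131645, minus strand) held 0.
TUBB4B: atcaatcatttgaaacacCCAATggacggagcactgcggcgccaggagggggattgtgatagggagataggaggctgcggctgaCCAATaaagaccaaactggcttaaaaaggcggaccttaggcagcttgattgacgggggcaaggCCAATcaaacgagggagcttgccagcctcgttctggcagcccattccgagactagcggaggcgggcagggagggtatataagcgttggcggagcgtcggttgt
TUBA1B: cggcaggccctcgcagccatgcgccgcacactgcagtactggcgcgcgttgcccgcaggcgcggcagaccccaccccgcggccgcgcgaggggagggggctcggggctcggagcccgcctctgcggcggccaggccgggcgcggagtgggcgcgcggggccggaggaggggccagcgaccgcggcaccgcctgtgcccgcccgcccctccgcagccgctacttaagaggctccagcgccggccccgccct

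Of the 10 tubulin genes matched, 7 held the box in at least 1 of their listed promoters, as did 37.0% of the 27305 genes with a promoter in the RefSeq set and 32.0% of all 35116 promoters. TUBA1B, TUBA4A and TUBB2A were the genes in which no listed promoter held it. A match to these letters is a description of the sequence only.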

How the data were processed

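Polyadenylated RNA of HT1080 cells had been primed with oligo-dT, amplified as a whole cDNA pool with phi29 polymerase, tagmented and sequenced. The authors aligned and quantified reads (Bowtie2 2.3.1 and RSEM 1.2.25 on GRCh37 are named in the submitters' processing notes, and the annotation is not given in the sources used here). For each gene entry the authors deposited an unnormalized read count, in whole numbers, and its TPM, a level corrected for length and library total. Amplification without molecular identifiers and the division of reads between near-identical genes both affect these values.

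TPM was rescaled to sum to 1000000 in a library. Conditions came from the labels, 1 library each, so no test was possible. Differences were taken as log2(TPM + 1) minus LD over genes that reached 1 TPM in any library, and called at 1 log2 unit. Exact 95% intervals on TPM levels and on reads per 1000000 were Poisson intervals on the deposited read count. Those on ratios of read shares outside RNA5-8S5, and on shares within a family, were binomial (Clopper-Pearson) intervals. The floor was 3 reads. All 10 members were named, and from each list the genes furthest above and below LD in RM and in HD among those with at least 50 reads in LD, except 1 gene that is not reported here. Implied lengths were reads divided by TPM, relative to the median over 43 genes with at least 200 reads in every library. The members and lists were chosen with earlier results of these data known. Alternatives were pseudocounts of 0.1 and 5, median-ratio scaling, reads per 1000000 outside RNA5-8S5, other filters, a threshold of 2 log2 units, read shares and HD left out. Those that leave RNA5-8S5 out, include TUBB4B or need a mean of 50 reads were chosen after seeing the data. The scripts were tested on simulated data. Analysis used pandas 2.3.3, scipy 1.17.1, numpy 2.4.6 and matplotlib 3.10.9 under Python 3.11.15.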

Additional observations from a re-analysis of the deposited data

How the results depend on the processing

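For single members, 31 of 180 values moved by more than their counting error under 5 other settings (pseudocounts of 0.1 and 5, median-ratio scaling, reads per 1000000 outside RNA5-8S5, RNA5-8S5 left out before rescaling) and no called value changed sign. TUBB2C in HD, which has 0 reads and so no such error, was included in the 180 as not moved, although it ran from -10.75 to -5.15 log2 units. Under median-ratio scaling, which multiplied RM and IL-8 up relative to LD, the median of the members was 0.75 with IL-8 and 0.54 in RM (0.021 in reads per 1000000), 3 members were higher with IL-8, 0 were lower in RM, and the log2 ratio of summed tubulin TPM to LD was 0.085 with IL-8, 0.79 in RM and -2.68 in HD. That ratio was -0.36, 0.06 and -2.24 as reported, -0.12, 0.20 and -3.22 in reads per 1000000, -0.16 and 0.13 with IL-8 and RM with TUBB4B in the sum, and -0.32 and -2.49 with IL-8 and HD without RNA5-8S5. With at least 10 reads in all 5 libraries, 0 members were higher with IL-8, 1 was higher and 1 lower in RM, since fewer members were tested, and at 2 log2 units the counts were 0, 1 and 0. TUBA1A's share of alpha-tubulin was 5.60% in LD, 7.69% with IL-6, 12.5% with IL-8 and 12.9% in RM by reads. TUBB2C's share of beta-tubulin was 28.6% in LD, 18.3% with IL-6, 29.7% with IL-8 and 70.7% in RM by TPM, 11.4%, 6.90%, 12.5% and 43.5% by reads, and 4.26%, 2.91%, 4.58% and 17.3% with TUBB4B. Leaving HD out of the filter changed no count of members in the other comparisons, but the shares of all genes past the threshold rose. They were 14.6% higher and 11.1% lower with IL-6, 11.9% and 24.3% with IL-8, and 9.55% and 30.3% in RM. No paired analysis was possible because each condition holds 1 library, and for the same reason no replicate could be left out. Depth limits HD most, where TUBB2A rests on 6 reads and TUBG1 on 3.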
